A study of Homo sapiens with 6 samples.

Results

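RNA of repeats was compared between H9 cells given DZNep and TSA (RSeT+DT) and untreated H9 cells in the same RSeT medium. These are 4 of the 6 libraries of the series, with 2 libraries a group, chosen by their labels and described across all 15600 rows of the repeat table. H9 is an established human embryonic stem cell line, and RSeT is a commercial medium that keeps such cells in a naive-like state. Treatment was DZNep at 10 nM together with TSA at 5 nM for 48 hours, and no other agent or allele is named for either group. The title of the series ties the experiment to LINE1, the Polycomb complex PRC2, the nucleolus and an 8-cell-like state. The other 2 libraries, primed H9 cells in mTeSR medium, entered the fit to estimate the spread and are quoted only as levels. Libraries were made from total RNA with a stranded kit and so include transcripts that lack a poly(A) tail. Whether replicates were separate cultures is not labelled, and each p-value is set against a spread between libraries that may be technical.

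DZNep blocks S-adenosylhomocysteine hydrolase, which lowers methylation by EZH2, the enzyme of PRC2 that places the repressive mark H3K27me3. TSA, trichostatin A, inhibits histone deacetylases and so raises histone acetylation. Repeats make up much of the human genome and fall into interspersed repeats, which spread by copying (LINE1, Alu, endogenous retroviruses, DNA transposons), tandem satellites at and near centromeres, genes and relics of small structural RNA, and simple repeats, in which a short unit recurs in tandem. In pluripotent cells, retroviral long terminal repeats (LTRs) such as LTR7 serve as promoters. A count here sums all genomic copies of a repeat, including copies inside introns and untranslated regions of host genes, so no position belongs to a value.

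Of the 15600 rows, 5544 had no count in any of the 4 libraries, and 4665 passed the filter on low counts and were tested: 3433 simple repeats and 1232 others. Repeat counts summed to 13064045 and 11520770 in RSeT+DT and to 38312112 and 17191110 in RSeT, so RSeT replicate 1 was the deepest library. Rows of 7SK, 7SL, BC200 and Y RNA together took 23.6% and 21.4% of counts in RSeT+DT but 16.3% and 15.7% in RSeT. The direction of small changes depended on how libraries were scaled. TMM, the usual edgeR scaling, was the main one. Relative to it, library totals moved log2 fold changes by -0.154 in the median and a scaling on interspersed repeats moved them by 0.219. Calls are quoted as made under TMM or, more strictly, under all 4 scalings tried (TMM, RLE, library totals, interspersed). The 4 rescale the same counts and are not independent checks. Rises called under all 4 were those called under library totals, and falls were those called under interspersed scaling. Where a direction turns between scalings both values are given. In these bulk libraries fewer cells of a type and less RNA per cell cannot be told apart.

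Simple repeats and the other repeats moved to opposite sides. Under TMM, 1168 of the 4665 tested rows were higher in RSeT+DT (25%) and 810 lower (17.4%), at an adjusted p of 0.05 by edgeR's quasi-likelihood test. Of these, 789 (16.9%) were higher and 281 (6.02%) lower under all 4 scalings. Interspersed scaling alone called 37.1% higher. Simple repeats gave 751 of those 789 rises, and the other repeats gave 227 of the 281 falls. Among simple repeats the median log2 fold change was 0.21 under TMM, 0.43 under interspersed scaling and 0.06 under library totals. Among the others it was -0.22 under TMM, where 6.41% were higher and 52.6% lower, and -0.37 under library totals, but near 0 under interspersed scaling. Most changes were small: 112 rises and 86 falls reached 2-fold under TMM. Of these, only 2 rises and 12 falls were of repeats that are not simple repeats. The 2 rises were of the ribosomal RNA rows SSU-rRNA_Hsa and LSU-rRNA_Hsa, which did not pass in DESeq2.

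The units below are those of simple repeats on which the results turn, each written as copies in tandem of at least 10 bases, 5′ to 3′, with CpG dinucleotides in capitals, as read from the repeat's own name. The first set is of units that rose and hold CpG, the second of a rise and 2 falls among units of 7 or 8 bases, and the last is the unit of satellite III.
Unit (GGC)n: ggCGgCGgCGgc
Unit (CCG)n: cCGcCGcCGcCG
Unit (CGCACCC)n: CGcacccCGcaccc
Unit (CCCGCAG)n: ccCGcagccCGcag
Unit (CTCGCC)n: ctCGccctCGcc
Unit (TGAGAGG)n: tgagaggtgagagg
Unit (TCCTCAG)n: tcctcagtcctcag
Unit (GGCACCCC)n: ggcacccCGgcacccc
Unit (GGAAT)n: ggaatggaat

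The rise of simple repeats grew with the share of G and C in the unit. Of 635 tested units with under 25% G and C, 58 were higher and 55 lower under TMM, with a median log2 fold change of -0.16. Of 849 units with 75% or more, 465 were higher (54.8%) and 15 lower, with a median of 0.48. The classes between had medians of 0.00 for 596 units of 25% to under 50%, 0.17 for 395 units of exactly 50%, and 0.30 for 955 units above 50% and under 75%. The order of these medians is the same under each scaling, since a scaling moves all rows by about the same amount. Under all 4 scalings, 358 of the 849 richest units were higher and 7 lower, against 26 higher and 12 lower of the 635 poorest. Counts differed between the classes as well, with median mean counts of 39, 43.5, 71, 42 and 112.5 from the poorest to the richest. Among units without CpG, the median log2 fold change rose with the mean count, from -0.22 under 20 to 0.33 at 500 or more. The part of counts in the order by G and C was not tested.

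**Figure D1:**
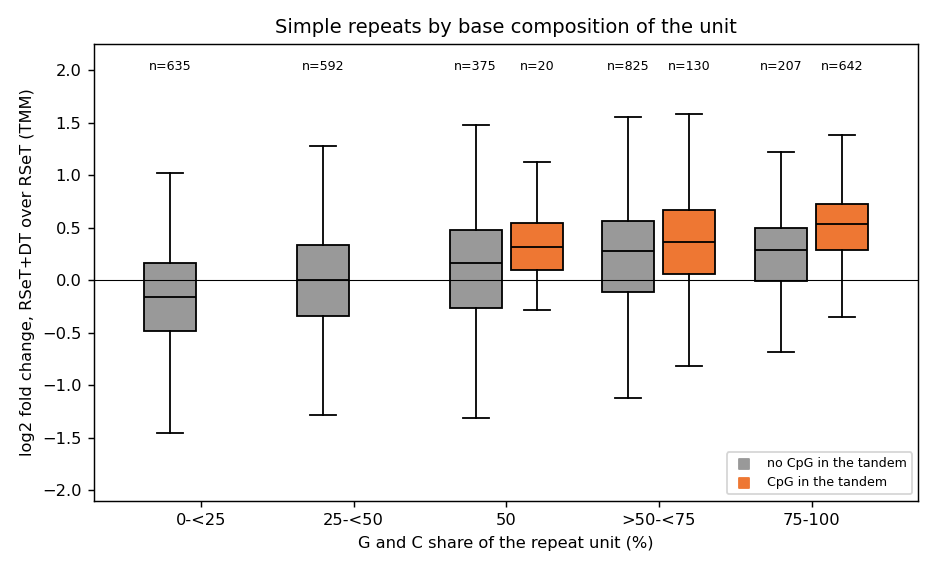
Log2 fold change (RSeT+DT over RSeT, TMM) of tested simple repeats by the G and C share of the unit in percent, split by whether the tandem holds a CpG; boxes span the quartiles with the median as a line, whiskers reach the last value within 1.5 box lengths, and outlying points and classes under 5 rows are not drawn. The medians rise from -0.16 in units under 25% G and C to 0.54 in units of 75% or more that hold a CpG.

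Units with CpG, the site of DNA methylation in vertebrates, rose more often than units without it. Of 796 tested units whose tandem holds a CpG, 425 were higher (53.4%) and 10 lower under TMM, and 336 were higher and 5 lower under all 4 scalings. Of 2634 units without CpG, 661 were higher (25.1%) and 152 lower. Among units of 75% or more G and C, the 642 with CpG had a median of 0.54 and the 207 without CpG a median of 0.29, but base composition differs between them: of units made only of G and C, 185 hold a CpG and 6 do not. At each exact share with at least 20 units of both kinds, a split added after the values were seen, the median was higher with CpG: 0.38 against 0.25 at 75%, 0.44 against 0.24 at 80%, 0.54 against 0.47 at 83.3%, and 0.47 against 0.16 at 85.7%. The share called rose with the mean count: among CpG units, 93.4% were higher at a mean count of 500 or more and 12.9% under 20. In each of the 5 classes of mean count the share of rows called higher was larger with CpG than without. The difference between the classes was not tested, because units share reads and host transcripts.

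CpG simple repeats took 2.11% and 2.09% of repeat counts after treatment and 1.62% and 1.56% in untreated RSeT. The groups do not overlap, and the RSeT+DT shares are near those of primed cells, 2.05% and 2.09%. The 6 rows of the (CCG) unit family, the triplet in its 3 frames on each strand, rose together, by 0.56 to 0.68. In CPM, which divides counts by the summed repeat counts of a library, (GGC)n stood at 2065 and 2037 in RSeT+DT and at 1573 and 1487 in RSeT (log2 fold change 0.58, SE 0.044, adjusted p = 1.04e-10). (GCC)n stood at 1159 and 1136 CPM against 823.5 and 774.1 CPM (0.68, SE 0.047). All 6 were higher under all 4 scalings. The 6 rows of the (CAG) family, which is G and C rich and has no CpG, rose as well, by 0.41 to 0.53, again under all 4 scalings. The dinucleotide (CG)n went from 34.3 and 31.8 CPM to 52.1 and 49.1 CPM (0.76, SE 0.072). (AT)n, at 644.2 and 684.2 CPM in RSeT+DT and 705.7 and 677.1 CPM in RSeT, did not pass (0.09, SE 0.044, adjusted p = 0.0892). (CG)n and (AT)n were picked after their values were seen.

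Rises were also more frequent for units that occur in promoters. A unit was looked for in the 35116 promoters of 300 bases in the RefSeq table for GRCh38.p14, which span a gene's start, as at least 2 tandem copies covering at least 12 bases, on both strands, with overlaps between units allowed. GGC in tandem was found in 914 promoters, 2.60% of them. Of 926 units found in no promoter 17.2% were higher under TMM, and of 1596 found in 1 to 9 promoters 26.2%. The share was 53.9% of 778 units found in 10 to 99 promoters and 69.2% of 130 found in 100 or more. Among units of 75% or more G and C the same order held, with 26.3%, 44.6%, 65.8% and 73.8% higher. Median counts rise along this order too, from 25.25 to 694, and their part in it was not tested. The promoter classes were chosen after values were seen, and a match says only that the letters are present.

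Among simple repeats with a mean count of at least 50 and no overlap between groups, (TGAGAGG)n had the largest rise. It stood at 4.59 and 5.64 CPM in RSeT+DT against 1.38 and 1.34 CPM in RSeT (2.05, SE 0.25). (CCTTCTC)n, with more counts behind it, stood at 37.0 and 36.5 CPM against 14.6 and 14.4 CPM (1.49, SE 0.096, adjusted p = 7.28e-12). Both pairs are far apart. (GGTACC)n (1.58), (CGCACCC)n (1.58), (CCCGCAG)n (1.49), (CTTGGC)n (1.48) and (GGTCAGA)n (1.47) rose under all 4 scalings. (CTCGCC)n rose by 1.86, but its RSeT libraries differed at 3.16 and 0.465 CPM and it did not pass in DESeq2 (adjusted p = 0.083).

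The falls of simple repeats were few. (GGCACCCC)n fell from 4.20 and 2.68 CPM in RSeT to 0.383 and 0.434 CPM in RSeT+DT (-2.97, SE 0.40), although its tandem holds a CpG. (TCCTCAG)n fell from 4.33 and 4.83 CPM to 0.765 and 0.868 CPM (-2.32, SE 0.30). (CAGCACC)n fell by 1.65 and (CTGGTCA)n by 1.10 on the log2 scale. (GAGAGA)n (-1.17), (AGTACT)n (-1.08), (CCATCC)n (-1.03) and (GAAAA)n (-1.02) passed with all libraries, but each lost its call when 1 of the libraries was left out. Leaving out RSeT+DT replicate 1 ended the call of each of these but (CCATCC)n. That of (CCATCC)n ended without RSeT+DT replicate 2 or RSeT replicate 2, and that of (GAGAGA)n also without RSeT replicate 1.

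(GGAAT)n, the unit of satellite III in pericentromeric heterochromatin, stood at 426.2 and 359.2 CPM in RSeT+DT and at 250.8 and 279.4 CPM in RSeT (0.73, SE 0.060, adjusted p = 4.40e-10), and at 0.713 and 0.367 CPM in primed cells. Treated and untreated libraries do not overlap, and the rise passed under all 4 scalings. Its reverse complement (ATTCC)n was near 1 CPM throughout, at 1.38 and 1.13 CPM against 1.67 and 0.756 CPM. Of the 10 tested rows of this unit family, a second, (TGGAA)n, passed under TMM (0.38) but not under library totals (adjusted p = 0.145), and the other 8 did not pass. Over all simple repeats, 829 pairs of reverse complements were tested in both orientations. In 176 pairs both rows were higher and in 7 both were lower. In 317 pairs 1 row only was called, in 18 the rows went opposite ways, and in 311 neither was called. The sources used here do not say whether counting used strand, so a row need not stand for the strand of its transcripts.

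Alpha satellite and ACRO1 moved against the row (GGAAT)n. ALR/Alpha, the alpha satellite on which centromeres are built, fell from 32360 and 32560 CPM in RSeT to 8430 and 7843 CPM in RSeT+DT (-1.84, SE 0.034, adjusted p = 1.79e-23). ACRO1, a satellite of the short arms of acrocentric chromosomes, fell from 63.7 and 69.2 CPM to 23.1 and 32.5 CPM (-1.11, SE 0.095). Both stayed above primed cells, where ALR/Alpha was at 523.6 and 548.8 CPM and ACRO1 at 0.891 and 1.32 CPM. BSR/Beta, the beta satellite, fell less (-0.40, SE 0.045), so the log2 ratio of ALR/Alpha to BSR/Beta within a library went from 5.54 ± 0.042 to 4.10 ± 0.077 (SD, n = 2). Of the 16 other satellite rows tested, 1 was higher and 3 lower (18.8%) under all 4 scalings, near the 18.4% lower over all repeats other than simple ones. SATR2 went from 118.3 and 118.6 CPM to 57.3 and 62.1 CPM (-0.84, SE 0.055), and the minisatellite MSR1 rose (0.41, SE 0.050).

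**Figure D2:**
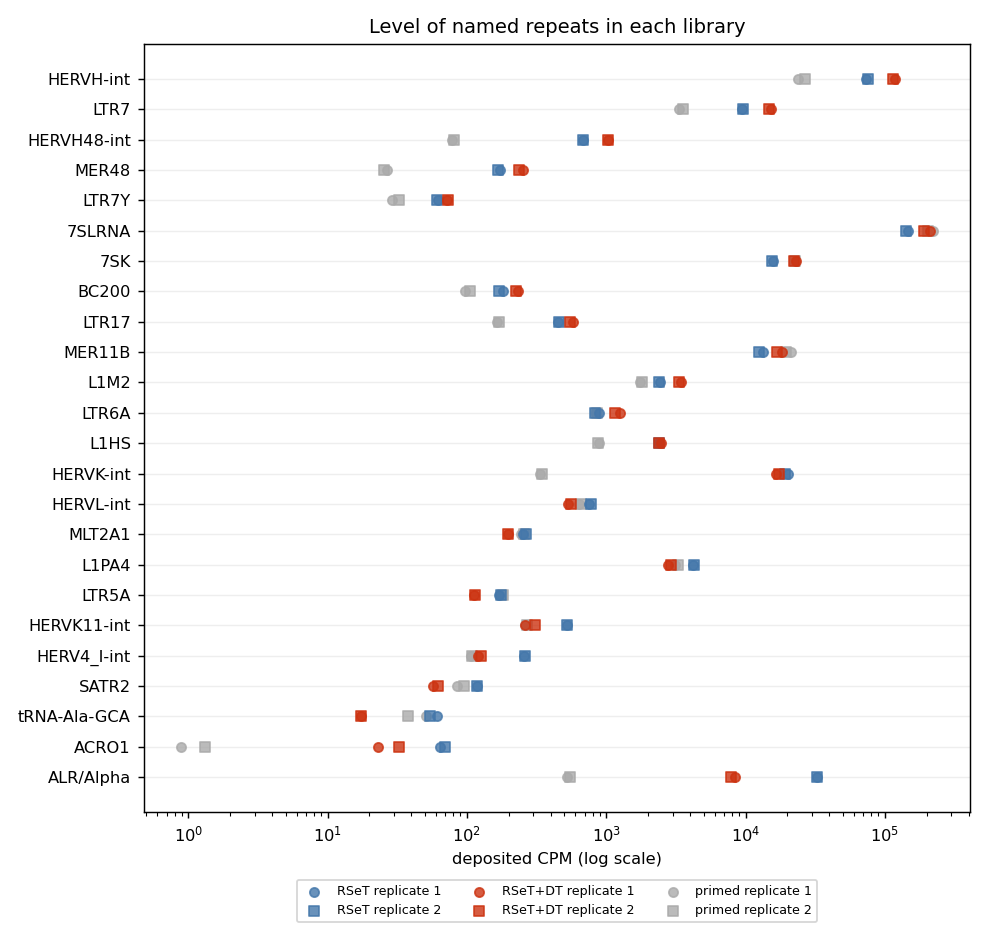
Deposited CPM (log scale) of 24 named repeats in each of the 6 libraries, with circles for replicate 1 and squares for replicate 2. ALR/Alpha in RSeT+DT lies between RSeT and primed cells, and HERVH-int and LTR7 in RSeT+DT lie above both.

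Among endogenous retroviruses, HERVH and its relatives rose. HERVH-int, the internal part of a primate retrovirus transcribed in human pluripotent cells, stood at 118600 and 114900 CPM in RSeT+DT and at 73440 and 75620 CPM in RSeT (0.80, SE 0.025, adjusted p = 4.09e-18). Its promoter LTR7 stood at 15230 and 14770 CPM against 9417 and 9660 CPM (0.81, SE 0.032). The log2 ratio of HERVH-int to LTR7 was 2.97 ± 0.0038 in RSeT and 2.96 ± 0.0014 in RSeT+DT, so both parts rose to the same degree. HERVH48-int (0.75, SE 0.044) and its LTR, MER48 (0.68, SE 0.046), rose with them. Of the 6 rows of HERVH and LTR7, 3 were higher under all 4 scalings, the third being LTR7Y (0.38, SE 0.059), against 3.08% of all repeats other than simple ones.

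The other LTR7 variants did not follow. LTR7B stood at 242.8 and 256.7 CPM in RSeT+DT and at 289.8 and 282.4 CPM in RSeT (-0.04, SE 0.035, adjusted p = 0.332), and it was higher under interspersed scaling (0.18) and lower under library totals (-0.20). Within libraries the log2 ratio of LTR7 to LTR7B went from 5.06 ± 0.052 to 5.91 ± 0.088, a difference of 0.85 that no scaling can alter. LTR7C passed under TMM (0.26) but not under library totals, and LTR7A, near 1 CPM, did not pass.

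Elements transcribed at the 8-cell stage did not rise as a group. HERVL-int, the internal part of HERVL, fell from 747.7 and 774.8 CPM to 534.8 and 558.9 CPM (-0.32, SE 0.044), and its direction held under all 4 scalings. Its LTR MLT2A1 fell under TMM (-0.24, SE 0.038) but was -0.02 under interspersed scaling. MLT2A2 was -0.01 under TMM and 0.21 under interspersed scaling. The log2 ratio of HERVL-int to MLT2A2 fell by 0.317 between the groups. Of these 4 rows, ERVL-int included, 0 were higher and 2 lower (50%) under TMM, against 6.41% and 52.6% of all repeats other than simple ones. Under interspersed scaling 2 of the 4 were higher and 1 lower. Values of genes were not analysed here, and no gene marker of a cell state stands beside them.

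The youngest HERVK family, HML-2, changed little. HERVK-int stood at 16530 and 17480 CPM in RSeT+DT and at 20070 and 19230 CPM in RSeT (-0.06, SE 0.028, adjusted p = 0.111), while under interspersed scaling it was 0.16. LTR5_Hs, the youngest LTR of the family, was 0.20 under TMM and 0.04 under library totals, and the older LTR5A fell (-0.45, SE 0.043) under all 4 scalings. Within libraries LTR5_Hs gained 0.647 on LTR5A and HERVK-int lost 0.253 to LTR5_Hs. Primed cells held 335.8 and 344.5 CPM of HERVK-int, so treated cells remained near the untreated RSeT level.

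In the pairs given here, an LTR rose while the internal part of the same retrovirus fell or changed less. MER11B, an LTR of HERVK11, stood at 18250 and 16960 CPM in RSeT+DT and at 13300 and 12490 CPM in RSeT (0.60, SE 0.044), while HERVK11-int fell from 525.3 and 523.7 CPM to 261.4 and 309.7 CPM (-0.73, SE 0.048). LTR6A, an LTR of HERVS71, rose (0.64, SE 0.051) and HERVS71-int fell (-0.60, SE 0.035). This pair and that of MER11B were joined after the values were seen. They do not show how often an LTR and its internal part diverge. Of 36 rows of HERVK groups other than HML-2, 2 were higher (5.56%) and 7 lower (19.4%) under all 4 scalings. Over all repeats other than simple ones the shares were 3.08% and 18.4%. LTR17, the LTR of HERVW, rose (0.46, SE 0.044), and its internal part HERV17-int was 0.11 under TMM and -0.04 under library totals. All the rises and falls named here except HERV17-int held under all 4 scalings. HERV4_I-int also fell, from 259.1 and 261.2 CPM to 121 and 126.5 CPM (-0.92, SE 0.041).

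**Figure D3:**
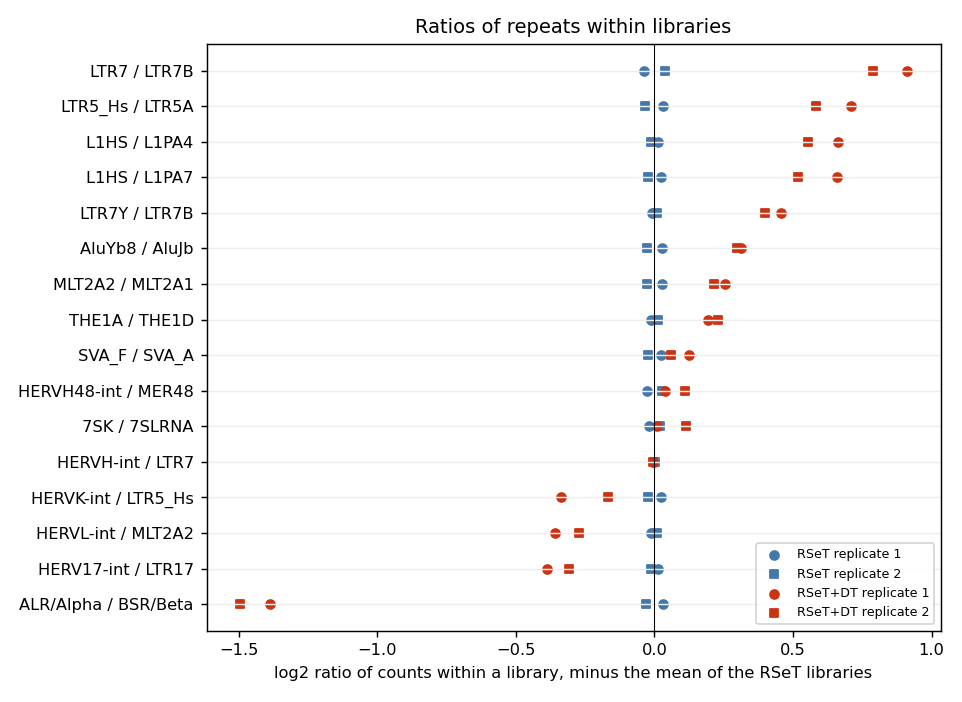
Log2 ratio of counts of a pair of repeats within each library, minus the mean of the RSeT libraries, for RSeT (blue) and RSeT+DT (red) replicates. The ratios of U3 to 7SK and of LSU-rRNA_Hsa to SSU-rRNA_Hsa, which overlapped between the groups and varied widely between replicates, are not drawn. LTR7 over LTR7B rose by 0.85 and ALR/Alpha over BSR/Beta fell by 1.44, while HERVH-int over LTR7 stayed within 0.01 of its RSeT value.

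LTRs used as promoters or enhancers in trophoblast, a cell type that naive-like cells can give rise to, showed no common rise. Of 15 rows, 3 were higher (20%) and 10 lower (66.7%) under TMM, with a median of -0.14. Under interspersed scaling 7 were higher and 1 lower, with a median of 0.08. Of all 1232 tested repeats other than simple ones, 6.41% were higher and 52.6% lower under TMM. Under interspersed scaling 260 of the 1232 were higher and 227 lower. LTR17 and MER39 (-0.35, SE 0.040) kept their calls under all 4 scalings. The rows together took 0.367% and 0.379% of counts in RSeT+DT and 0.422% and 0.430% in RSeT, and all 15 passed the filter on low counts. LTR12 and HERV9 (10 tested), THE1 (9), AluY (25), AluS (17), AluJ (4) and SVA (6) rows held no call under all 4 scalings. The AluS rows show why: 14 were lower under TMM, and 10 were higher and 0 lower under interspersed scaling.

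LINE1, a retrotransposon whose youngest copies can still move in humans, gave the clearest group of falls among interspersed repeats, in its older subfamilies. Of 92 mammalian-wide L1M and HAL1 rows, 81 were lower and 3 higher under TMM, and 61 were lower (66.3%) and 1 higher under all 4 scalings, against 18.4% lower over all repeats other than simple ones. Of 29 older primate rows 16 were lower and 0 higher under all 4 scalings. The medians were -0.36 and -0.38 under TMM and -0.14 and -0.16 under interspersed scaling. L1P3b fell most, from 53.9 and 56.3 CPM to 20.1 and 22.9 CPM (-1.21, SE 0.078, adjusted p = 7.38e-12). L1P4d (-0.76), L1M3e (-0.64), L1M (-0.57) and L1P5 (-0.54) also fell. L1M2 went the other way, from 2415 and 2408 CPM to 3463 and 3321 CPM (0.65, SE 0.041), the 1 rise of its list under all 4 scalings. Its neighbour by name L1M1 fell under TMM (-0.28) but was -0.06 under interspersed scaling.

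The 9 young LINE1 subfamilies split by age, though not in strict order. L1PA4 to L1PA8 fell under all 4 scalings, by 0.37 to 0.43 under TMM. L1PA8A, the oldest of the 9, was lower under TMM but was not called lower under interspersed scaling. L1PA4 stood at 2774 and 2908 CPM in RSeT+DT against 4213 and 4290 CPM in RSeT (-0.43, SE 0.036, adjusted p = 5.16e-10). L1HS, the human-specific subfamily, stood at 2462 and 2399 CPM against 2384 and 2387 CPM. Its log2 fold change was 0.18 (SE 0.043) under TMM, 0.40 under interspersed scaling and 0.03 under library totals, where it did not pass (adjusted p = 0.737). L1PA2 was 0.12 under TMM, 0.35 under interspersed scaling and -0.03 under library totals. L1PA3 was -0.11 under TMM and 0.11 under interspersed scaling. The ratio of L1HS to L1PA4 within a library is free of scaling, and on the log2 scale it went from -0.83 ± 0.017 to -0.22 ± 0.075. That is a gain of 0.609, toward the youngest, with primed cells at -1.82 and -1.89. L1HS gained 0.588 on L1PA7 as well. Among other families, AluYb8 gained 0.305 on the older AluJb, and THE1A gained 0.211 on THE1D. SVA_F gained only 0.0923 on SVA_A. Related subfamilies share reads, and the sources used here do not give how shared reads were assigned.

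**Figure D4:**
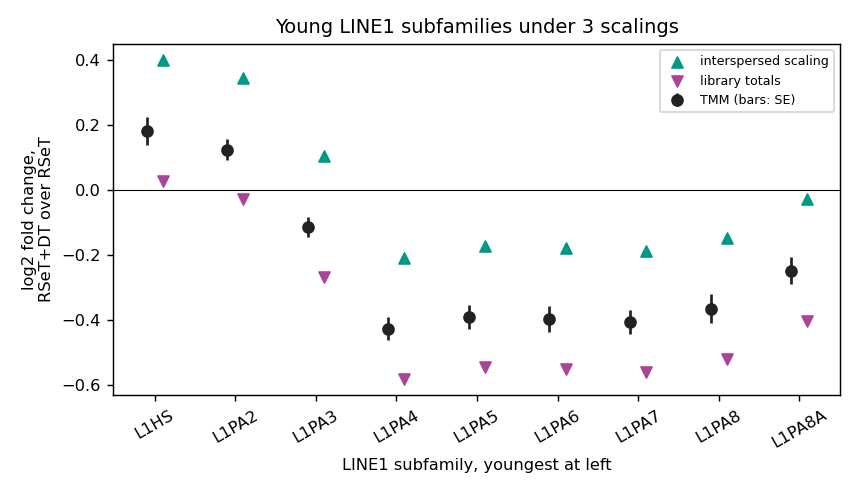
Log2 fold change (RSeT+DT over RSeT) of 9 young LINE1 subfamilies ordered from youngest to oldest, under TMM with SE bars, interspersed scaling and library totals. L1HS is the highest and L1PA4 the lowest under each of the 3 scalings, while the sign of L1PA2 and L1PA3 turns with the scaling.

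DNA transposons, extinct elements that moved by excision, fell to different degrees. Of 59 Tigger and mariner rows 29 were lower (49.2%) and 0 higher under all 4 scalings. Of 68 hAT rows 17 were lower (25%) and 1 higher, nearer to the 18.4% lower over all repeats other than simple ones. Tigger2b_Pri went from 193.4 and 194.4 CPM to 111.1 and 131.2 CPM (-0.53, SE 0.048). MER6B (-0.58), hAT-N1_Mam (-0.64) and MER6C (-0.80) fell, and Charlie21a rose (0.56, SE 0.059). Of 23 ancient L2, L3, CR1 and MIR rows 1, CR1-16_AMi (-0.61), was lower under all 4 scalings. Older retroviral relatives gave few such calls: 5 of 56 MLT1, 1 of 15 MST and 1 of 17 older ERVL rows were lower. UCON and Eulor rows, ancient conserved elements with low counts, went both ways. Under all 4 scalings 6 of 103 were higher (5.83%), led by UCON27 (0.74, SE 0.14). Another 5 were lower (4.85%), led among named rows by UCON53 (-1.29, SE 0.27). The shares over all repeats other than simple ones were 3.08% and 18.4%, at a median mean count of 1132 against 57.75 here.

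**Figure D5:**
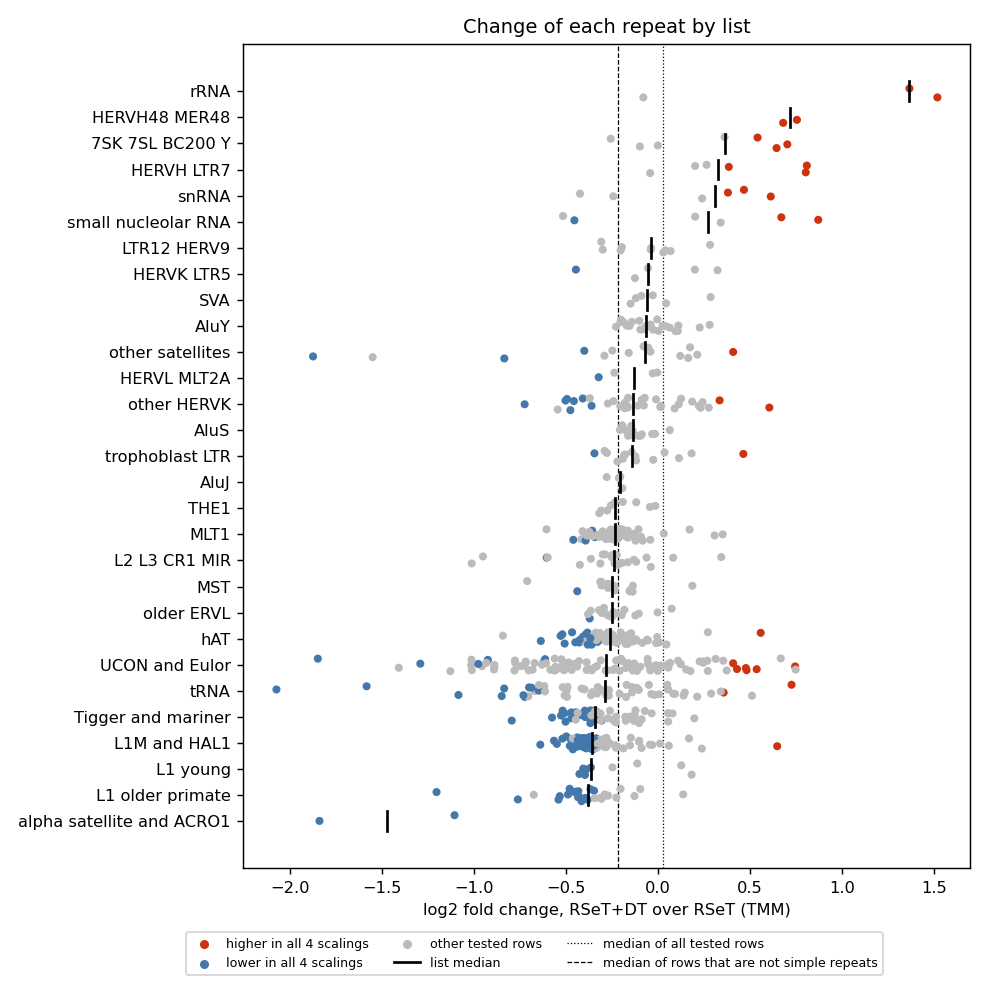
Log2 fold change (RSeT+DT over RSeT, TMM) of each tested repeat in 29 lists, which leave out simple repeats and rows in no list; black bars are list medians, red and blue points were higher or lower under all 4 scalings, and vertical lines mark the median of all tested rows (0.03, dotted) and of rows other than simple repeats (-0.22, dashed). The medians of the LINE1 and DNA transposon lists lie left of the dashed line, and those of HERVH, HERVH48 and 4 structural RNA lists lie right of the dotted line. Other lists also lie left of the dashed line, among them those of alpha satellite, tRNA, UCON and Eulor, MST, MLT1 and THE1.

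Abundant structural RNA rose in part. 7SLRNA, the scaffold of the signal recognition particle, stood at 212600 and 191700 CPM in RSeT+DT and at 147200 and 141000 CPM in RSeT (0.64, SE 0.040), and 7SK, which holds the elongation factor P-TEFb inactive, stood at 23000 and 22300 CPM against 15630 and 15380 CPM (0.70, SE 0.028, adjusted p = 6.19e-16). BC200, a primate RNA derived from Alu, rose too (0.54, SE 0.044). These 3 of 7 rows (42.9%) were higher under all 4 scalings, against 3.08% of all repeats other than simple ones. None of the 7 was lower, against 18.4%. HY1, a Y RNA, was -0.26 under TMM and -0.04 under interspersed scaling, and HY3, HY4 and HY5 did not pass under TMM. The ratio of 7SK to 7SLRNA overlapped between the groups.

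Of the spliceosomal RNAs, U1 rose from 5651 and 4959 CPM to 7888 and 6663 CPM (0.61, SE 0.085). U2 (0.38, SE 0.076) and U4 (0.47, SE 0.13) passed under all 4 scalings but not in DESeq2 (adjusted p = 0.154 and 0.335), and the CPM of U4 overlapped between the groups. The call of U4 also ended without RSeT+DT replicate 1 or RSeT replicate 2. U5 did not pass (0.24, SE 0.11), and U6 (-0.24) and U7 (-0.43) were lower under TMM but not under interspersed scaling.

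RNA of the nucleolus was mixed. Of 6 small nucleolar RNA rows 4 were higher and 2 lower under TMM, and 2 higher and 1 lower under all 4 scalings. The shares over all repeats other than simple ones were 6.41% higher and 52.6% lower under TMM, and 3.08% and 18.4% under all 4. U3, a small nucleolar RNA that guides early cleavage of the ribosomal precursor, stood at 7321 and 5420 CPM in RSeT+DT and at 4531 and 3245 CPM in RSeT (0.87, SE 0.15), and did not pass in DESeq2 (adjusted p = 0.093). SSU-rRNA_Hsa, small-subunit ribosomal RNA, stood at 4225 and 9654 CPM against 3145 and 2211 CPM (1.52, SE 0.50, adjusted p = 0.0156). LSU-rRNA_Hsa stood at 6559 and 11210 CPM against 4005 and 3637 CPM (1.36, SE 0.35). The groups do not overlap, but the treated libraries differ by more than the gap to RSeT: neither rise passed when RSeT+DT replicate 2 or either RSeT library was left out, nor in DESeq2 (adjusted p = 0.308 and 0.228). Primed replicates spread as widely, with 5134 and 465.3 CPM of SSU-rRNA_Hsa. 5S did not pass (-0.08, SE 0.069). U8, which acts in large-subunit processing, rose (0.67, SE 0.14), and U13_ fell (-0.46, SE 0.091).

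Transfer RNA rows as a group were called about as often as other repeats. Of 56 tested rows, 10 were lower (17.9%) and 2 higher (3.57%) under all 4 scalings, against 18.4% and 3.08% over all repeats other than simple ones. The alanine rows led the named falls: tRNA-Ala-GCA went from 61.0 and 54.8 CPM to 17.5 and 17.4 CPM (-1.59, SE 0.11, adjusted p = 4.795e-11) and tRNA-Ala-GCY from 125.1 and 121.2 CPM to 54.2 and 50 CPM (-1.09, SE 0.060). The initiator tRNA-Met-i fell from 33.4 and 32.5 CPM to 16.8 and 16.4 CPM (-0.84, SE 0.10). In each of these the groups are far apart and replicates close. tRNA-Thr-ACY_ (-0.85) lost its call without RSeT+DT replicate 2 or RSeT replicate 1. tRNA-Leu-TTA(m) rose (0.72, SE 0.054). Mature transfer RNA is short and heavily modified, and such library preparations read it poorly, so these rows describe the reads counted and not the pool of mature molecules.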

How the data were processed

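Repeat RNA was read in 6 H9 libraries (2 RSeT+DT, 2 RSeT, 2 primed). The deposited raw counts per repeat name were tested. The deposited CPM equal the counts scaled to the total of all listed rows within 0.00442 CPM and were used as levels. Trimmomatic 0.39, STAR 2.7.8a, featureCounts and Subread 2.14.2 with GRCh38/hg38 are named per the submitters' processing notes. What each tool did, which repeat annotation was used, how multimapping reads were handled and whether strand was used is not given in the sources used here.

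Counts were fitted with edgeR 4.0.16 (R 4.3.3, glmQLFit and glmQLFTest), all 6 libraries, group only, TMM, filterByExpr (minimum 10 counts, total 15), Benjamini-Hochberg over 4665 rows at 0.05. SE is the absolute fold change divided by the root of F. With 3 residual degrees of freedom, the biological coefficient of variation came to 5.49%. An exact permutation test of 2 against 2 libraries cannot go below p = 0.333. Interspersed scaling took TMM factors from rows other than simple repeats and structural RNA. Replicates differed beyond sampling noise (chi-square per degree of freedom 16.9 in RSeT+DT and 4.87 in RSeT).

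Lists were drawn by repeat name. Rows named were, at a mean count of at least 50 and without overlap between groups, the 15 largest rises and falls among repeats other than simple ones and the 8 largest among simple repeats, with anchor rows whatever their value and up to 3 passing rows of each other list. The members, lists and rule were chosen with earlier results of these data known. Rows chosen after values were seen include HERVS71-int, HERVK11-int, HERV4_I-int, L1M1, the dinucleotide rows and the CCG, CAG and satellite III unit families. Alternatives were other scalings and filters, DESeq2 1.42.0, limma 3.58.1 on log2(CPM + 1) or log2(CPM + 0.1), a replicate block, a 1.5-fold minimum, thinning of RSeT replicate 1 and leaving out each library.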

Additional observations from a re-analysis of the deposited data

How the results depend on the processing

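Counts of calls moved most with the scaling and with a minimum change. Rows lower numbered 281 under interspersed scaling, against 810. Of rows other than simple repeats, 38 were higher under library totals and 260 under interspersed scaling, against 79, and 227 were lower under interspersed scaling, against 648. Simple repeats lower numbered 284 under library totals, 54 under interspersed scaling and 62 in DESeq2, against 162. limma on log2(CPM + 1) and log2(CPM + 0.1), which scales by totals, gave 770 and 758 rows higher in all, 35 and 34 higher among other repeats, 724 simple repeats higher with the smaller pseudocount, and 299 and 303 simple repeats lower. A minimum change of 1.5-fold left 58 rows higher and 15 lower, of which 54 and 6 were simple repeats and 4 and 9 others.

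Leaving out 1 library gave 899 to 1049 rows higher, 621 to 700 lower, 62 to 80 and 528 to 574 among other repeats, and 830 to 969 and 89 to 126 among simple repeats. Calls under all 4 scalings ranged from 589 to 707 higher and 168 to 264 lower, the fewest lower calls being without RSeT replicate 1. A lone library of a group is then assumed to vary like the others. With the replicate number as a block, 1148 rows were higher and 801 lower, and 752 and 296 under all 4 scalings. Over 2942 rows the deviations of same-numbered libraries were not correlated (-0.00714 between RSeT+DT and RSeT). Each group gives only 1 difference between replicates, so this cannot tell whether the numbers pair libraries. Some shares of counts did follow the replicate number. Small nucleolar RNA, the spliceosomal and U7 RNA rows, and the 7SK, 7SL, BC200 and Y RNA rows were larger in replicate 1 of each group. AluS, AluJ, MLT1, MST and THE1 rows, among others, were larger in replicate 2 of each group. The share of rRNA kept neither order.

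Directions that turned under interspersed scaling, with their log2 fold change there, were those of L1PA3 (0.11), LTR7B (0.18), HERVK-int (0.16), LTR5B (0.093), ERVL-int (0.19), MLT2A2 (0.21), THE1A (0.17), SVA_A (0.10), SVA_B (0.13), SVA_C (0.069), SVA_F (0.19), AluJb (0.025), AluJo (0.0060), AluJr (0.014), AluYk11 (0.030), AluSz6 (0.012), AluSc5 (0.024) and AluSx4 (0.044). Under library totals and both limma fits, L1PA2 (-0.029 in each), HERV17-int (-0.042, -0.041 and -0.041) and AluYb8 (-0.044 in each) turned. Rows under about 20 counts rarely passed, so small changes there were not detectable at this depth.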
